A study of Mus musculus with 6 samples.

Results

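Abra, Srf, Myocd and 3 genes of actin-binding proteins, Ablim1, Ablim3 and Fhod3, form a small regulatory group around the serum response factor, and they are followed here through 6 RNA-seq libraries of the mouse embryonic heart region. The 6 genes are all found, by symbol, in a table of 25888 genes, and they were chosen by their role and by their measured control and mutant FPKM, from an earlier look at these data. The difference between the groups is therefore given for them as a description, with no p-value.

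Serum response factor (Srf) is a DNA-binding protein that sits on CArG boxes in the promoters of actin and contractile genes and of immediate-early genes. It has little activity of its own on muscle genes and works through coactivators. Myocardin (Myocd) is the coactivator of heart and smooth muscle, and the myocardin-related factors Mrtfa and Mrtfb are held in the cytoplasm by monomeric actin and released when actin polymerises. Abra, also called STARS, is an actin-binding protein of striated muscle that promotes this release. The actin-binding LIM protein Ablim3 binds Abra, Ablim1 is its relative, and Fhod3 is a formin that assembles the actin filaments of the cardiac sarcomere.

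Each library was made from a pool of dissected tissue, the anterior dorsal pericardial wall with the outflow tract, of C57BL/6 embryos at embryonic day 9.5. The 3 control libraries carry the genotype label "control", and whether these embryos held floxed alleles or Cre is not stated in the sources used here. The 3 mutant libraries came from Hand2flox/flox embryos with Mef2c-AHF-Cre, a Cre line driven in the anterior second heart field, so cells outside that lineage kept Hand2. The values are FPKM, fragment counts divided by gene length and by the depth of the library. The number of embryos in a pool is not stated either, so the spread between libraries may be partly technical, and in pooled tissue fewer cells of a type and less RNA per cell cannot be told apart.

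Hand2 itself had 116, 64.3 and 81.7 FPKM in controls 1 to 3 and 34.6, 22.2 and 17.9 in mutants 1 to 3, and the groups did not overlap. The size of the smallest steps in the table gave FPKM denominators of 22975222 to 31065423 fragments per library. Over all 12650 genes with a mean of at least 1 FPKM, the median log2 difference was -0.01, with an interquartile range of -0.10 to 0.08. Libraries of the same number in both groups deviated together, number 1 most clearly. Results fitted with that number as a block (the replicate block) therefore stand beside those without it. Unless another fit is named, without the block means the main limma fit, in which all libraries weigh equally. A limma fit with array weights, which weighs each library separately and has no block, called 193 genes higher and 349 lower. Its counts for the lists are given at the end. The pairing was read from these values, not from the labels, and calls made only with the block rest on it. Hand2 had an adjusted p by limma of 0.109 without the block and 0.0028 with it, so the main fit did not call the deleted gene. The library of control 3 stood apart by yolk sac and liver transcripts, with a summed level of 454 FPKM over 6 markers against at most 3.46 in every other library. Of 10 cardiac muscle markers all were expressed in every library. Of 3 listed skeletal muscle markers, Myod1, Myog and Myf5, none had a mean of 1 FPKM, and their sum was 0.285 to 0.451 FPKM in controls and 0.426 to 0.654 in mutants.

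Sequence upstream of the start site is shown for Srf and for 3 of its textbook targets that are described further on, because they hold CArG boxes, the letters that Srf is known to bind. Windows of 250 bases before the start were taken from RefSeq promoters on GRCm38.p6, and 2 of the 6 members, Srf and Ablim1, had an entry. The stretches below run 5′ to 3′ on the strand of the gene, stop short of the first annotated exon, and have the CArG boxes in capitals. They lie at chr17:46556176-46556284 on the minus strand for Srf, chr8:123894799-123894888 on the minus strand for Acta1, chr2:114052888-114052962 on the minus strand for Actc1 and chr2:156775263-156775352 on the plus strand for Myl9.
Srf: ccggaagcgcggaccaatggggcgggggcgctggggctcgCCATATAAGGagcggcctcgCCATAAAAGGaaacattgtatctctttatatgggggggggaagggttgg
Acta1: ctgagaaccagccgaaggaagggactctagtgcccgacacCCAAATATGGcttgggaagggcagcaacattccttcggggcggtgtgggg
Actc1: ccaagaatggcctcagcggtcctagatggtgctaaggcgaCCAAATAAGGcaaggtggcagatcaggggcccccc
Myl9: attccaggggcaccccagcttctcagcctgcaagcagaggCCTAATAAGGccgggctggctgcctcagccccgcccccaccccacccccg

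The Srf window held 2 CArG boxes, the first starting 82 and the second 62 bases before the start site. A CArG box, which reads as a match on both strands at once, was present in 482 of 32851 such windows (1.47%), and 6 windows (0.0183%) held at least 2. None of the 5 Ablim1 windows held one. A MEF2 site, in 0.508% of windows, was in no Srf or Ablim1 window, and the bHLH core CANNTG, in 66.2% of windows, was in 3 of the 5 Ablim1 windows and not in that of Srf. No 2 of these motifs overlapped in the Srf window, since only CArG boxes were found there. A match describes the letters only.

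Abra showed the largest difference among the members. The gene (ENSMUSG00000042895) is protein-coding and lies on GRCm38 chromosome 15 from 41864076 to 41869720 on the minus strand, in 2 exon blocks. Its level was 12.6, 13.4 and 15.0 FPKM in controls 1 to 3 and 2.96, 3.17 and 3.53 FPKM in mutants 1 to 3. The lowest control lay far above the highest mutant, with little spread inside either group. The means were 13.7 ± 1.19 and 3.22 ± 0.29 FPKM (SD, n = 3 each), so the mutant mean was 23.5% of the control mean. On the log2(FPKM + 1) scale, which understates changes of low genes, the difference was -1.80 (SE 0.10 without and 0.05 with the block).

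The 3 same-numbered pairs gave nearly the same Abra difference, -1.78, -1.79 and -1.82 for numbers 1, 2 and 3. Without control 3 it was -1.73, and leaving out any 1 library kept it between -1.85 and -1.73. Without the added 1 FPKM, on recovered reads, it was -2.04. Recovered reads per library, known up to a factor common to all libraries, were 1036, 1468 and 1420 in controls and 240, 298 and 340 in mutants.

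Myocd also had lower values in the mutants, but with a wide spread between libraries of the same group. The gene (ENSMUSG00000020542, GRCm38 chromosome 11 from 65176561 to 65269989, minus strand, 16 exon blocks) had 11.8, 18.9 and 23.3 FPKM in controls 1 to 3 and 7.24, 10.3 and 15.2 in mutants 1 to 3. Mutant 3 exceeded control 1, so the groups overlapped, while within each number the mutant library was the lower one. The means were 18.0 ± 5.81 and 10.9 ± 4.01 FPKM (SD, n = 3 each), and the mutant mean was 60.5% of the control mean. The log2 difference was -0.68, with an SE of 0.30 without the block and 0.06 with it. Pair by pair it was -0.64, -0.81 and -0.59. Without mutant 1 the difference was -0.44, the smallest of those with 1 library left out, and without control 3 it was -0.48.

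Much of the Myocd spread followed the library number. In both groups library 1 had the lowest Myocd, 0.78 below the mean of the other libraries in controls and 0.72 below it in mutants on the log2(FPKM + 1) scale. Library 1 of each group differed from the others in a way that ran with gene length. Over the shortest quartile of the genes tested its median deviation was 0.32 in controls and 0.25 in mutants, and over the longest quartile it was -0.21 and -0.17. Myocd, with 6424 exonic bases, is in the third quartile by length, where the medians were -0.05 in both groups. Its own deviation was larger than that median, but the spread of single genes around the median was not computed. The part of length in the Myocd deviation was not tested.

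Srf, the DNA-binding partner of the group, was the most abundant member and differed little between the groups. The gene (ENSMUSG00000015605, GRCm38 chromosome 17 from 46548329 to 46556175, minus strand, 7 exon blocks) had 75.4, 68.9 and 80.3 FPKM in controls 1 to 3 and 64.8, 65.8 and 71.4 in mutants 1 to 3. The highest mutant lay above the lowest control, so the groups overlapped. The mutant mean was 89.9% of the control mean, with 74.9 ± 5.73 and 67.3 ± 3.55 FPKM (SD, n = 3 each). The log2 difference was -0.15 (SE 0.10 without and 0.05 with the block), and the mutant was the lower library in all 3 pairs.

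Fhod3 lay between Abra and Srf in its difference. The gene (ENSMUSG00000034295, GRCm38 chromosome 18 from 24708623 to 25133501, plus strand, 28 exon blocks) had 13.5, 14.8 and 18.5 FPKM in controls 1 to 3 and 9.83, 7.72 and 12.6 in mutants 1 to 3. All mutants were lower than all controls, though mutant 3 and control 1 were close. The means were 15.6 ± 2.60 and 10.04 ± 2.43 FPKM (SD, n = 3 each), 64.3% of the control level in mutants. The log2 difference was -0.60 (SE 0.18 without and 0.09 with the block), and by pairs it ran from -0.42 for number 1 to -0.86 for number 2. In the reference annotation 309 exonic bases of Fhod3 are shared with the opposite-strand gene Gm9955, which had a mean of 0.447 FPKM. No strand setting is given, so reads there cannot be assigned to either gene.

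The Ablim genes varied more between libraries than between groups. Ablim1 (ENSMUSG00000025085, GRCm38 chromosome 19 from 57032733 to 57314919, minus strand, 33 exon blocks) had 4.36, 5.64 and 6.43 FPKM in controls 1 to 3 and 3.15, 6.09 and 5.38 in mutants 1 to 3. Mutant 2 exceeded its control and the other mutants did not, and the groups overlapped widely. The log2 difference was -0.16 (SE 0.22 without and 0.10 with the block). Without mutant 1 it turned to 0.07, so its direction rested on that library. Ablim1 was also low in library 1 of both groups, by 0.39 in controls and 0.70 in mutants, and at 11949 exonic bases it is in the longest quartile of genes.

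Ablim3 was barely present. The gene (ENSMUSG00000032735, GRCm38 chromosome 18 from 61799392 to 61911824, minus strand, 23 exon blocks) had 0.45, 0.82 and 0.80 FPKM in controls 1 to 3 and 0.55, 0.63 and 0.65 in mutants 1 to 3. Its mean over the 6 libraries, 0.65 FPKM, is under the minimum for testing, and the mutant values lay inside the control range. The whole reads behind these values were 48, 116 and 98 in controls and 58, 77 and 81 in mutants, again up to a common factor.

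**Figure D1:**
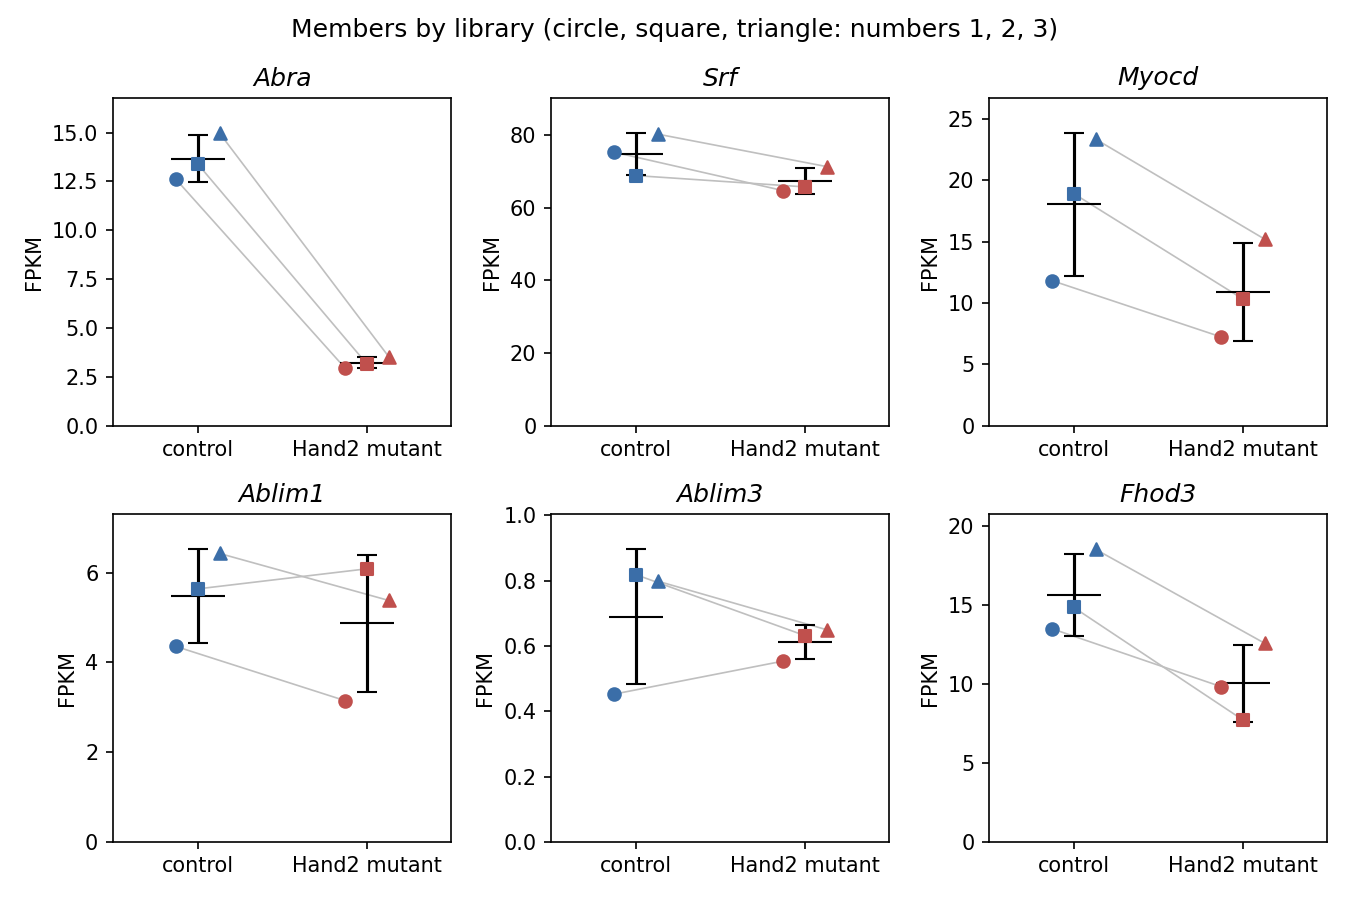
FPKM (y axes, from 0) of each of the 6 genes in the 3 control and 3 mutant libraries, with circles, squares and triangles for numbers 1, 2 and 3, grey lines joining equal numbers, and black bars for mean ± SD. Abra separates without overlap (12.6 to 15.0 against 2.96 to 3.53), Myocd is lower at the mutant end of every grey line but overlaps between groups, and the Srf and Ablim lines are nearly level or cross.

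Of the 5 members tested, limma over all 12650 genes called 1, Abra, as lower at a Benjamini-Hochberg adjusted p under 0.05, where 0.15% of all genes were called lower and 0.0237% higher. With the replicate block it called 3, Abra, Myocd and Fhod3, where 3.7% of all genes were called lower and 1.42% higher. The groups did not overlap, with mutants lower, for Abra and Fhod3, which held for 6.85% of genes, while for 5.44% all mutants were higher. Over the 20 other settings Abra was called in 17, in which 1 to 1207 of all genes were called. The exceptions were unblocked fits without mutant 2, without both libraries numbered 2 and without both numbered 3, which called 0 genes. Myocd and Fhod3 were called in the same 6, in which 283 to 1207 of all genes were called, and Srf and Ablim1 in 0. Because this contrast chose the members and all settings reuse the same libraries, nothing further is read from these counts.

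The order of the members by level, which FPKM allows because it is per length, changed between the groups at 1 place. In controls it ran Srf, Myocd, Fhod3, Abra, Ablim1 and Ablim3, and the libraries of Myocd and Fhod3, and of Fhod3 and Abra, overlapped. In mutants Abra came after Ablim1, with overlapping libraries, and it no longer overlapped Fhod3. Among all listed genes Abra went from the 83.2 to the 63.7 percentile of level, Myocd from 86.7 to 80.4 and Srf from 97.1 to 96.9.

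Cardiac muscle markers were lower in the mutants as a sum, though not each of them. The summed level of 10 such markers was 3272 to 5639 FPKM in controls and 2372 to 3807 in mutants, and the mutant mean was 69.2% of the control mean. More than any other gene Myl7, an atrial myosin light chain, makes up this sum, with 2567 of the mean 4344 FPKM in controls. Marker by marker the mutant mean ran from 55.6% of the control mean for Actn2 to 101% for Myl2, and for 4 of the 10 all mutants lay below all controls. None of the 10 passed without the block (limma, adjusted p under 0.05) and 6 fell with it, beside 3.7% of all genes. Abra, at 23.5%, lay below all 10 markers, whereas Myocd at 60.5% and Fhod3 at 64.3% lay within their range.

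Per 1000 FPKM of the marker sum, Abra stood at 2.24, 4.10 and 3.63 in controls 1 to 3 and at 0.78, 1.33 and 1.24 in mutants 1 to 3. These ratios did not overlap, and the mutant mean was 33.6% of the control mean. The same ratio was 85.6% for Myocd, 89.8% for Fhod3, 130% for Srf, 130% for Ablim1 and 122% for Ablim3, with overlapping groups in each. Within the numbers the mutant ratio of Myocd was the lower one in all 3 pairs, from 2.10 to 1.90, 5.78 to 4.35 and 5.66 to 5.34. That of Srf was the higher one in all 3, from 13.4 to 17.0, 21.1 to 27.7 and 19.5 to 25.1, as were those of Ablim1 and Ablim3. Fhod3 differed in direction between pairs. The marker sum was at 69.2% of the control mean, so a gene with an unchanged FPKM rises in this ratio. The part of cardiac muscle content in these differences was not tested.

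Of the markers of other cell types, those of red cells summed to 3025 to 7105 FPKM in controls and 3127 to 4540 in mutants, at 74.1% of the control mean with overlapping groups. Markers of the endothelium were at 77.7%, with no member of 5 passing without the block and 3 falling with it, beside 3.7% of all genes. Epithelial markers were at 86.5%, those of neural crest at 98.5% and those of neurons at 100.4%, and in these 3 lists, as among the red cell genes, none passed in either fit. Second heart field markers were at 151% of the control mean as a sum. Tbx1, with 65.1 FPKM in controls and 117 in mutants, makes up most of this sum. Marker by marker the mutant mean was 79.3% of the control mean for Isl1, 108% for Fgf10, 129% for Fgf8 and 180% for Tbx1 and Six2. Of the 5, 2 rose and 1 fell with the block, beside 1.42% and 3.7% of all genes.

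**Figure D2:**
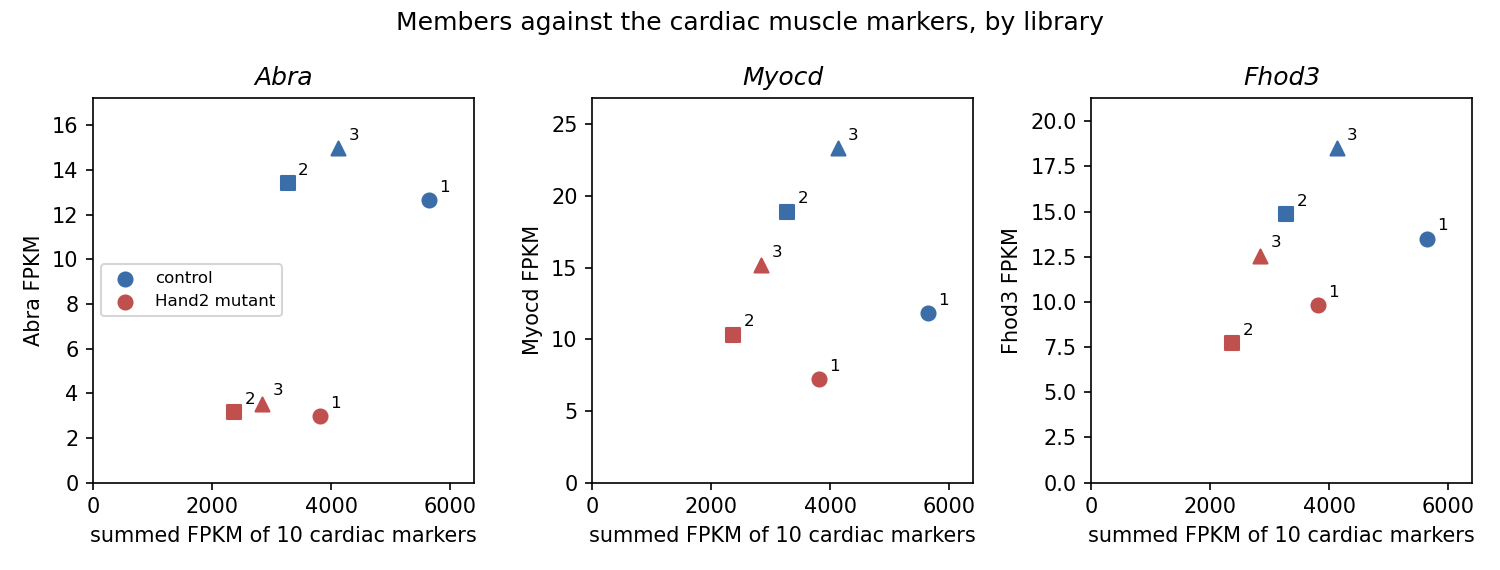
FPKM of Abra, Myocd and Fhod3 (y axes) against the summed FPKM of 10 cardiac muscle markers (x axes) in each library, blue for controls and red for mutants, with replicate numbers beside the points. Abra forms 2 separate levels whatever the marker sum, whereas Myocd and Fhod3 in mutants 2 and 3 lie below and to the left of controls 2 and 3, and library 1 of each group lies to the right of the others of its group.

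The libraries also allow a search for genes whose pattern over the 6 libraries was most like that of a member. Likeness was Pearson's r of log2(FPKM + 1) over 6 libraries, among 11180 named genes, and it includes the group difference itself. For Abra the closest were Prnp (r = 0.997), Col8a1 (0.992), Rgs4 (0.991), Radil (0.990) and Snx7 (0.989), and 74 genes reached 0.95. Mean levels in controls and mutants were 13.6 and 7.92 FPKM for Prnp and 2.66 and 0.73 for Rgs4. For Myocd they were Cacna1d (0.997), a voltage-gated calcium channel gene, Elovl5 (0.997) and Ank3 (0.997), and 206 genes reached 0.95. For Srf they were Kcnk6 (0.993), Mob3a (0.993) and Pdk3 (0.990), with 54 at 0.95 or more. These values describe 6 points that share their libraries.

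Genes listed as other cofactors of Srf or as related regulators differed little in their median. This list also holds Mef2a, Mef2b, Mef2c and Mef2d, whose products bind the separate MEF2 site. Of 15 listed and 14 tested, none passed without the block, by limma or by voom on recovered reads. At p under 0.05 before adjustment, limma had 3 lower and 0 higher, beside 546 lower and 329 higher of all 12650 genes. With the block 3 fell, beside 3.7% of all genes. The median log2 difference of the list was -0.08, beside -0.01 for all genes. Those that fell with the block were Csrp1 (240 and 170 FPKM in controls and mutants, adjusted p = 0.619 without the block and 0.0362 with it), Csrp3 (78.1 and 46.2, adjusted p = 0.502 and 0.0026) and Hopx (15.5 and 12.2, adjusted p = 0.431 and 0.0419). Csrp1 and Csrp3 encode LIM proteins, and Csrp3 is muscle LIM protein of the Z-disc. Hopx is a homeodomain protein that restrains Srf in the heart. Csrp2 had 328 and 244 FPKM and passed in neither fit. By voom with the block the 3 called were Csrp1, Csrp3 and Csrp2 (adjusted p = 0.0089), while Hopx had an adjusted p of 0.065.

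The coactivators closest to myocardin did not show its pattern. Mrtfa was at 9.12 ± 0.27 FPKM in controls and at 9.97 ± 0.54 in mutants, and Mrtfb had 5.19 ± 0.89 and 5.04 ± 0.77 (SD, n = 3 each). The log2 differences were 0.11 (SE 0.08) and -0.03 (SE 0.15), and neither passed in either fit. Mef2c, whose product switches on myocardin and many muscle genes, had 6.72 ± 1.61 and 6.22 ± 1.69 FPKM, and its log2 difference of -0.10 (SE 0.22) passed in neither. These 3 were named for their role with their values known.

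The targets of Srf in muscle and the cytoskeleton were lower in their median, and their calls depended on the fit. Of 32 listed and 31 tested, none passed in the main limma fit without the block, and 1 was lower by voom. With array weights and no block, 13 were lower and 0 higher, beside 349 lower and 193 higher of all genes. At p under 0.05 before adjustment, limma had 15 lower and 0 higher, beside 546 lower and 329 higher of all 12650 genes. With the block 18 fell and 0 rose, beside 3.7% and 1.42% of all genes. The median log2 difference of the list was -0.36, and for 17 of the 31 all mutants lay below all controls, against 6.85% of all genes. Without both libraries numbered 1, 2 or 3, 12, 9 and 8 fell with the block. Heart muscle genes such as Actc1 are among these targets, and the cardiac marker sum stood at 69.2% of control in the same libraries, with 6 of 10 markers falling with the block. Its part in the result was not tested.

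Acta1, the skeletal alpha-actin gene, which the embryonic heart also expresses, had 378, 226 and 315 FPKM in controls 1 to 3 and 118, 119 and 121 in mutants 1 to 3. The mutant libraries were nearly equal and far below every control. The log2 difference of -1.32 (SE 0.20) had an adjusted p by limma of 0.0852 unblocked and 0.0102 blocked. Actg2, an actin gene of smooth muscle, had 2.40 and 0.94 FPKM (adjusted p = 0.199 and 0.024). The leiomodin gene Lmod1 had 9.27 and 5.67 (0.322 and 0.0137), and Kcnmb1, which encodes a potassium channel subunit of smooth muscle, had 4.28 and 2.42 (0.325 and 0.0087).

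Of the other targets whose sequence is printed, Actc1 had 2649 and 1456 FPKM and the myosin light chain gene Myl9 had 480 and 297. Both were called lower with the block and neither in the main fit without it. By limma with array weights and no block, Actc1 also passed (adjusted p = 0.0346) and Myl9 did not (0.0602). Among the 27 targets with a RefSeq window, 7 held a CArG box in it (25.9%), against 1.62% of all genes in that table. They were Acta1, Actc1, Cnn2, Fhl1, Filip1l, Myl9 and Vcl. Of these 7, Filip1l and Vcl passed in neither fit, so a box in the window did not go with a call in every case. The list was drawn from genes known to be bound by Srf, so its share of boxes is no finding.

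Immediate-early targets, which Srf controls through the Elk factors rather than through myocardin, differed widely in level. Of 11, 6 reached a mean of 1 FPKM, and of these none passed without the block, by limma or by voom. At p under 0.05 before adjustment, limma had 2 lower and 0 higher, beside 546 lower and 329 higher of all 12650 genes. With the block, where 3.7% of all genes fell, 1 of the 6 did. That gene was Fos, at 1.85, 1.48 and 2.05 FPKM in controls 1 to 3 and 0.89, 0.86 and 0.90 in mutants 1 to 3 (adjusted p = 0.202 without and 0.034 with the block). Ier3 had 3.61 and 2.90 FPKM, Junb 10.1 and 9.14 and Nr4a1 11.9 and 10.2, and these 3 passed in neither fit. The most abundant were Ier2, with 101 and 102 FPKM, and Mcl1, with 84.5 and 86.0, which were named after their values were seen and passed in neither fit. The list median was -0.17.

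Other actin-linked muscle genes had a median difference close to that of Fhod3. Of 10 listed and 8 tested, 1 fell without the block and 6 with it, beside 0.15% and 3.7% of all genes. None was higher, and the median of the list was -0.59. Most of these genes belong to striated muscle. The sum of the 10 cardiac markers was at 69.2% of control in the same libraries, and single markers ran from 55.6% for Actn2 to 101% for Myl2. The part of cardiac muscle content in the result was not tested. Lmod3, which encodes the leiomodin of striated thin filaments, had 7.29, 5.01 and 6.09 FPKM in controls 1 to 3 and 2.61, 2.13 and 1.98 in mutants 1 to 3 (adjusted p by limma = 0.0488 unblocked and 0.0033 blocked). Leaving out any 1 library ended the call made without the block. The tropomodulin gene Tmod1, whose product caps thin filaments, had 17.8 and 10.4 FPKM (0.387 and 0.0059), Xirp1, an actin-binding protein gene of the heart, 25.5 and 14.8 (0.429 and 0.0027), and the supervillin gene Svil 13.8 and 8.60 (0.394 and 0.0150).

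**Figure D3:**
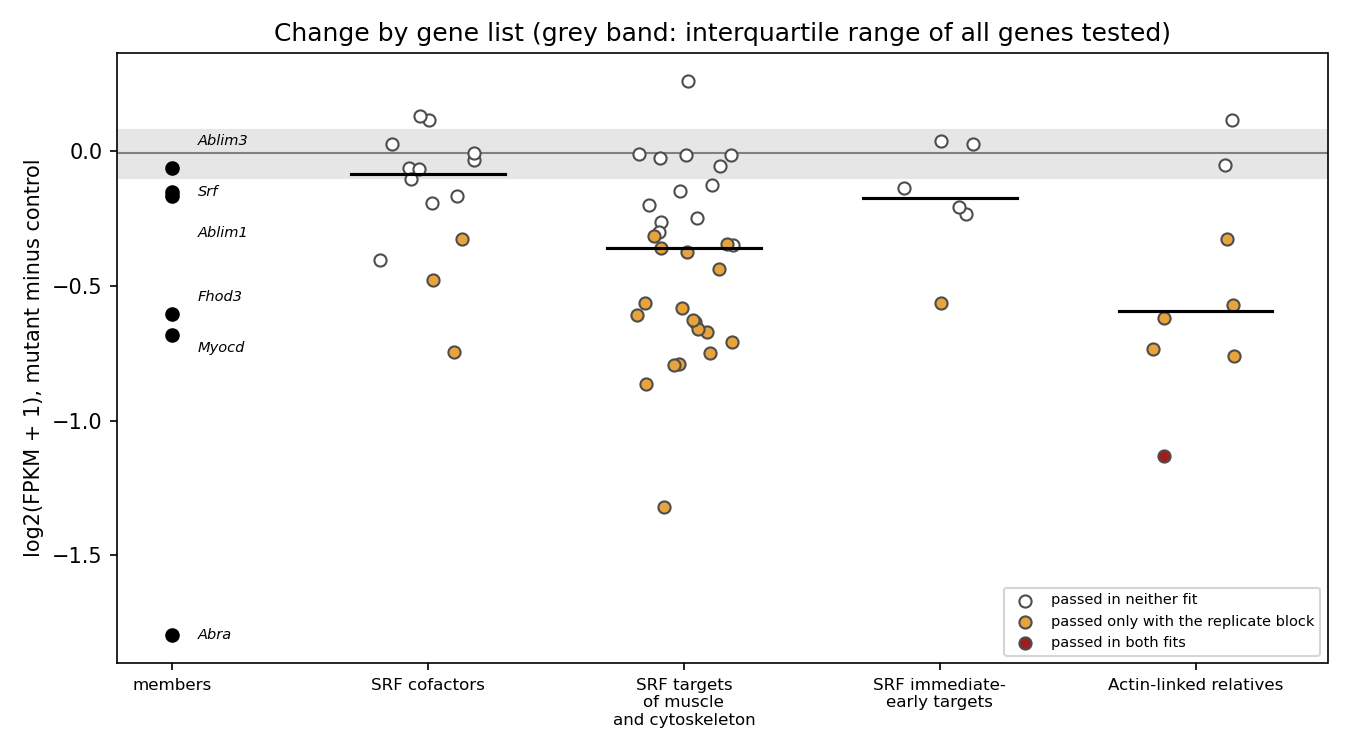
Difference of mean log2(FPKM + 1), mutant minus control (y axis), of the 6 members (black) and of the tested genes of 4 lists, filled by whether limma called them and with a black line at each list's median. The grey band is the interquartile range of all genes tested. Abra (-1.80) lies below every listed gene, Srf and the Ablim genes lie close to the band, and the Srf targets (median -0.36) and actin-linked relatives (median -0.59) extend downward.

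The named genes show how much of each call depended on the block. For Csrp3 the SE of the log2 difference was 0.24 without the block and 0.05 with it, and for Xirp1 it was 0.22 and 0.05. For Fos it went only from 0.11 to 0.09, and for Acta1 from 0.20 to 0.14.

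**Figure D4:**
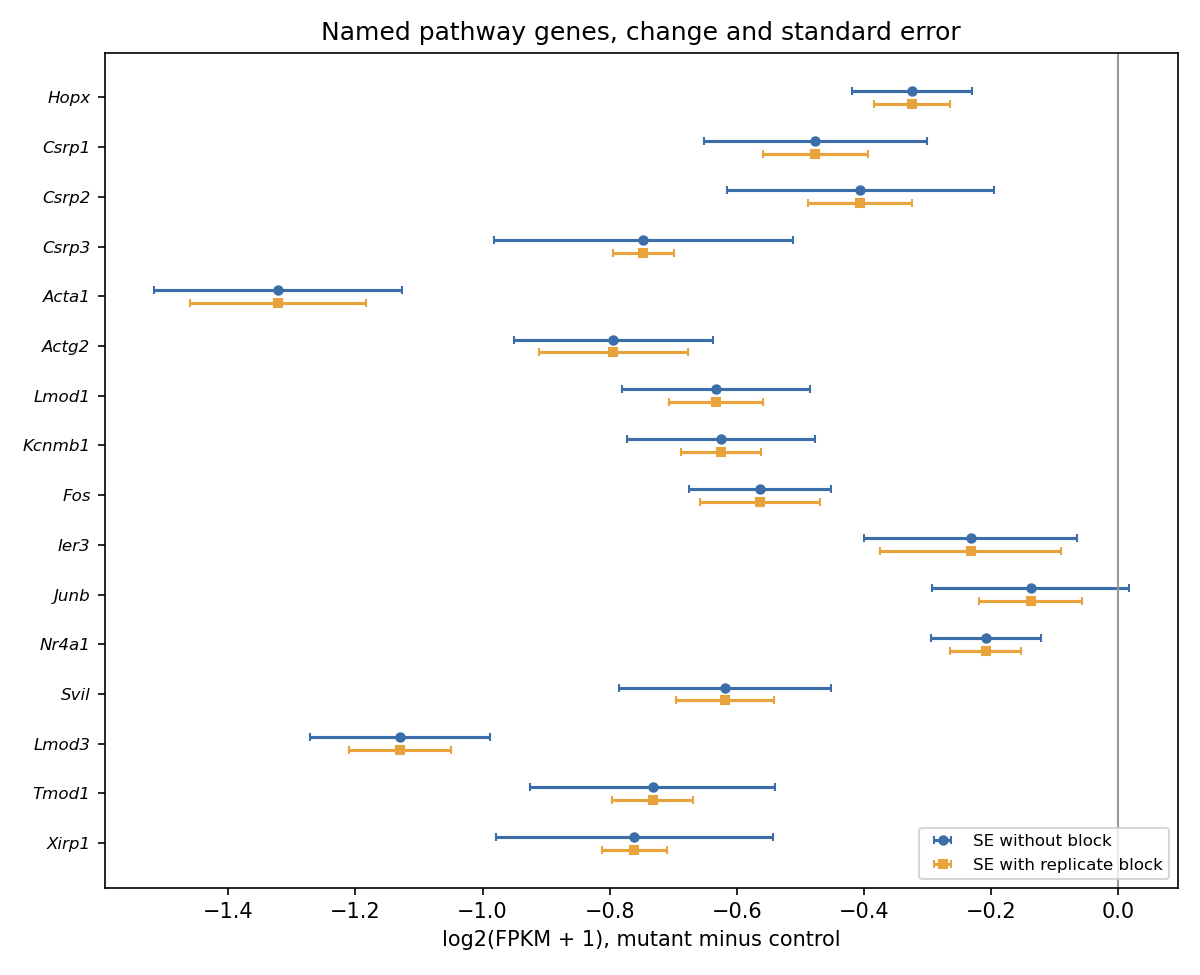
Log2 difference, mutant minus control (x axis), of the pathway genes named by rule, with bars for 1 SE from limma without (blue) and with (orange) the replicate block. Every point lies to the left of 0, Acta1 (-1.32) and Lmod3 (-1.13) lie furthest to the left, and the bars of Csrp3 and Xirp1 shorten most with the block.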

How the data were processed

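The authors deposited 1 table of FPKM values, with 1 column per library. STAR 2.5.1b, Cufflinks 2.2.1, bcl2fastq 2.18 and the build mm8 are named in the submitters' processing notes. The annotation and strand setting are not stated in the sources used here. Symbols came from a reference name table (129 IDs unmatched) and loci from GENCODE M21 on GRCm38, not from the authors' build. Whole reads (within 0.001) came out at the annotated exon length for 20321 of 25759 genes (78.9%). For the others, Abra, Srf, Ablim3 and Fhod3 included, the length nearest to the annotated one that gave whole reads was used.

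Values were compared on the log2(FPKM + 1) scale with limma (version 3.58.1, R 4.3.3), a two-sided test with a mean-variance trend. It ran over the 12650 genes whose mean reached 1 FPKM, with Benjamini-Hochberg adjustment. Members and lists were chosen with earlier results of these data known. Of the lists, 1 and a single gene of another are not reported here. Named were the members, up to 4 genes of each list with the smallest p, and the genes most like Abra (5), Srf and Myocd (3 each). Deviations of same-numbered libraries from their group means correlated at 0.728, 0.443 and 0.443 over genes. The numbers were therefore taken as pairs from the data, not the labels. Control 2 and mutant 3 also had 0.306, and control 3 and mutant 2 had 0.0357. Deviations cancel out within a group, so these correlations depend on each other, and numbers 2 and 3 are less clearly paired than number 1. The fit was tested on simulated reads. Separate origin of the libraries is not stated, so the p-values cover their spread alone. Recovered reads were fewest for Ablim3 and, among the members tested, for Abra in mutants, where counting error matters most, and 3 libraries a group limit the precision of every value.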

Additional observations from a re-analysis of the deposited data

How the results depend on the processing

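Abra, Srf, Myocd and Fhod3 kept a negative log2 difference under all 20 settings run, and Ablim1 under 19. Abra was -2.05 with a pseudocount of 0.1, and -2.04 by voom on recovered reads without and with the replicate block, an alternative chosen after seeing the data. Fhod3 was -0.93 with array weights. Leaving out 1 library gave -1.85 to -1.73 for Abra, -0.94 to -0.44 for Myocd, -0.76 to -0.44 for Fhod3, -0.21 to -0.10 for Srf, -0.32 to 0.07 for Ablim1 and -0.17 to -0.0045 for Ablim3. Myocd was moved over 1.5-fold by mutant 1 (-0.44 without it) and Srf by control 3 (-0.10 without it), quantile normalization (-0.09) and equal sums (-0.08). Ablim1 was moved that far by controls 1 and 3 (-0.29 and -0.06) and mutants 1 and 2 (0.07 and -0.32). Array weights (-0.06), equal sums (-0.11) and leaving out both libraries numbered 1 (-0.06) or 2 (-0.29) also moved Ablim1 that far. Without mutant 2, or both libraries numbered 2 or 3, the unblocked fit called no gene, Abra included.

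Against 22 calls over all genes, no low-value filter gave 8, equal sums 13, array weights 542, the replicate block 648 and blocked voom 1207. Leaving out 1 library gave 0 to 3, and leaving out both of a number 0 to 3 without the block and 283 to 340 with it (290 without number 3). With the replicate block the SRF cofactors had 3 calls, the SRF targets 18, the immediate-early targets 1 and the actin-linked relatives 6, against 0, 0, 0 and 1. Array weights gave 2, 13, 1 and 5, and blocked voom 3 (with Csrp2 in place of Hopx), 21 (1 of them higher), 1 and 5. In blocked fits also chosen after seeing the data, the counts without number 1 were 2, 12, 0 and 5, without number 2 they were 1, 9, 0 and 5, and without number 3 they were 1, 8, 0 and 5. Quantile normalization, equal sums and unblocked voom each gave 1 SRF target. The relatives had 0 calls with quantile normalization, with no filter, and without 1 library or both of any number without the block. For none of these was the cause tested. The deposited values are FPKM. The planned count-model tests were not run, and voom on recovered reads was added instead.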
